A study of Mus with 6 samples.

Results

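The genes described here encode the enzymes that make and break down cyclic nucleotides, namely the adenylyl cyclases and the phosphodiesterases (PDEs). They are the protein-coding genes whose symbol is Adcy or Pde followed by a number and, for the PDEs, by no letter or a letter from a to d. That rule took 33 of 54532 genes in the table, 10 cyclases and 23 PDEs. The rule goes by name only, and 2 of the 23 PDE genes encode no cyclic nucleotide hydrolase. Pde6d encodes a chaperone of prenylated proteins and Pde12 a nuclease of mitochondrial RNA. Expression was measured by RNA sequencing in tissue labelled basolateral amygdala, a region known for its part in fear memory, from 3 wild-type mice (WT) and 3 mice labelled CNTNAP4-KO (KO), after the gene of a neuronal adhesion protein. All 6 are labelled male. The sources used here do not give strain, age, the deleted part of Cntnap4 or any treatment of these mice. Levels are in FPKM, fragment counts scaled to a single length per gene and to a factor per library. Genes of different length can be compared on it as far as that length holds for their transcripts. Where 3 values of a group are listed, they stand in the order of replicates 1 to 3.

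Adenylyl cyclases turn ATP into cyclic AMP (cAMP) when receptors coupled to stimulatory G proteins are active, and the members of the family differ in how calcium and G protein subunits control them. PDEs hydrolyse cAMP, cyclic GMP (cGMP) or both, and so set how long and how far the signal lasts. In neurons cAMP acts through protein kinase A (PKA), exchange factors and ion channels, and the transcription factor CREB, a target of PKA, is known for its part in memory. Medium spiny neurons, which project from striatum, are known for a high content of AC5, PDE1B and PDE10A.

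Libraries held 17647556 to 20813211 reads in genes. Cntnap4 measured 2.03, 3.59 and 4.91 FPKM in the WT libraries against 1.61, 1.00 and 1.48 in KO, so the groups did not overlap (exact two-sided permutation p = 0.1, the smallest that 3 against 3 samples allow, limma adjusted p = 0.220), and the KO libraries kept 114 to 190 Cntnap4 reads, with a mean level 38.9% of that in WT. Defining markers of the labelled tissue were low in WT, with the glutamate transporter gene Slc17a7 at 5.83 ± 0.535 FPKM and Rspo2 at 0.438 ± 0.0751 FPKM (SD, n = 3), against 248 ± 31.0 FPKM for Ppp1r1b, a marker of medium spiny neurons. Results therefore describe the pieces as dissected. 2 KO libraries stood apart. The library labelled KO replicate 1 had Xist at 43.0 FPKM, at most 0.0346 FPKM elsewhere, and 0 reads on 4 Y-linked genes, against 2831 to 4001 elsewhere, which goes against its male label. KO replicate 2 had Slc17a7 at 94.3 FPKM, against 21.4 and 19.1 FPKM in KO replicates 1 and 3, and the hypothalamic peptide gene Avp at 2.20 FPKM, against 325 to 894 FPKM in the other 5 libraries. Log2 differences without these libraries are given beside the results they move. In bulk tissue, fewer cells of a type and less RNA per cell cannot be told apart.

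No cyclase or PDE passed the test between KO and WT after adjustment over all 16155 tested genes. Of the 33 members, 29 reached a mean of 0.5 FPKM and were tested, 9 cyclases and 20 PDEs. The count past the limma adjusted threshold was 0 of 29, where 0.0124% of all tested genes passed, and the smallest adjusted p was 0.220, for Pde8a. At an unadjusted p under 0.05 there were 3 members (10.3%), against 15.2% of all tested genes. These were Adcy1, higher in KO, where 8.36% of all genes were called in that direction, and Pde8a and Adcy8, lower in KO, where the share of all genes was 6.85%. With voom on the recovered reads 0 members passed after adjustment and 7 (24.1%) had an unadjusted p under 0.05, against 16.3% of all genes. For 7 of 29 members the values of WT and KO showed no overlap (24.1%), against 22.6% of all tested genes. Pde7b and Pde4c (6.90%) stood higher in every KO library, as did 11.8% of all genes. Pde8a, Adcy8, Pde3b, Pde1c and Pde12 (17.2%) stood lower, as did 10.8% of all genes. Pde4c reached the filter of 0.5 FPKM only through its KO values, so its place in these counts is no independent result. With a filter of 1 FPKM, which leaves out Pde4c among others, 6 of 26 members showed no overlap, beside 3296 of 13895 genes. In the main limma fit the members' share was below that of all genes for unadjusted p-values, and with voom it was above. Other limma fits went both ways. It was above among protein-coding genes only (20.7% against 16.7%) and with moderation without trend or robust settings (17.2% against 14.5%). It was also above without WT replicate 1 or KO replicate 3, and below in every other limma fit. The count of 3 of 29 thus gives no direction. For groups without overlap, the share was below that of all genes for higher levels and above it for lower levels. After rescaling to an equal FPKM sum it was below for both. That rescaling moved the median log2 difference of all tested genes to -0.04, and voom also gave -0.04. Under both, more genes lay below 0 than above. With median-ratio size factors that median was -0.0008, and the same 7 members showed no overlap as in the main fit. The median log2 difference was 0.10 over the 29 members and 0.01 over all tested genes, with 17 members above 0 and 12 below.

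**Figure D1:**
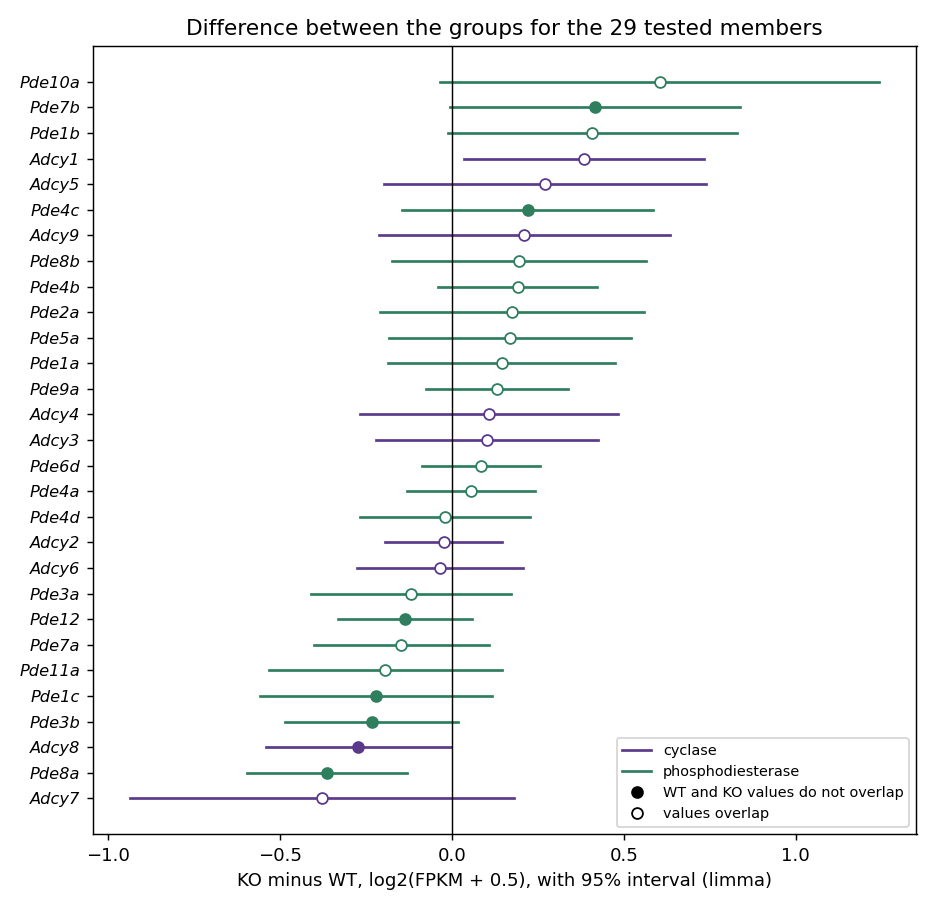
Difference between KO and WT for each of the 29 tested members, as the KO level minus the WT level in log2(FPKM + 0.5), with points for the estimate, bars for limma's 95% interval, purple for cyclases and green for PDEs. Filled points mark the 7 members whose WT and KO values do not overlap, and the bars of Pde8a, Adcy1 and Adcy8 are the 3 that leave out 0.

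Few genes carried most of the transcripts of each family, and the same ones led in both groups. Adcy5 made up 53.4% to 63.1% of the summed cyclase FPKM in each library, and Adcy5, Adcy2 and Adcy1 together 82.5% to 87.3%. Pde1b and Pde10a made up 52.2% to 66.2% of the summed PDE FPKM. The PDE sums, shares and ranks take Pde2a as listed, a level that is uncertain for a reason given below. By mean level over the 6 libraries, 10 members exceeded 10 FPKM, 16 lay between 1 and 10 FPKM, 3 between 0.5 and 1 FPKM and 4 below 0.5 FPKM. The highest were Pde1b at 133 FPKM, which ranked 250 among all genes, Adcy5 at 112 FPKM, which ranked 323, and Pde10a at 52.0 FPKM, which ranked 849. The summed cyclase level was 176 ± 19.5 FPKM in WT and 205 ± 39.4 in KO, and the summed PDE level 276 ± 27.2 and 346 ± 67.9 FPKM (SD, n = 3 each). Both sums were highest in KO replicate 2, at 250.0 and 423 FPKM, and lowest in WT replicate 2, at 153 and 248 FPKM.

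**Figure D2:**
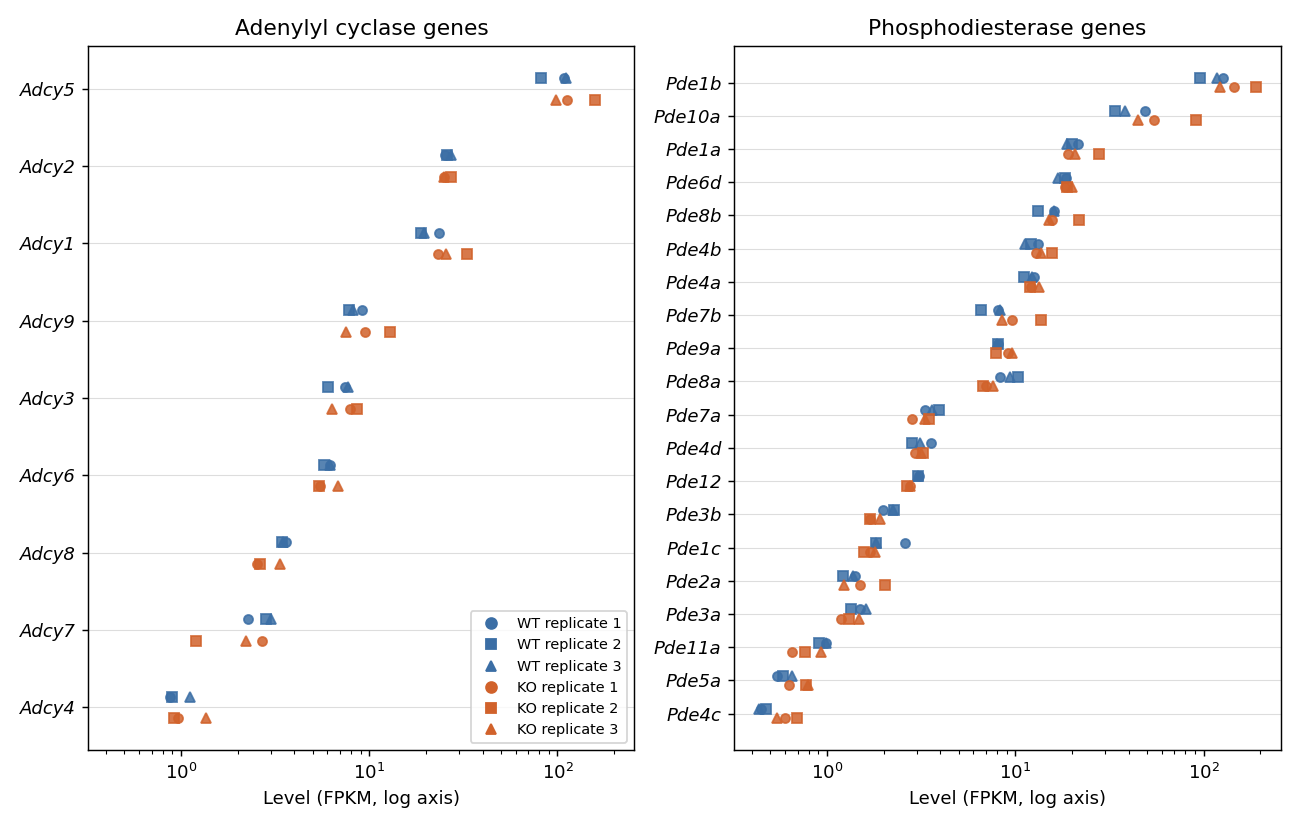
Level of each tested member in every library, in FPKM on a log axis, with cyclases on the left and PDEs on the right, ordered by mean level (blue for WT above, orange for KO below, symbol for the replicate). Adcy5, Pde1b and Pde10a lead their families in all 6 libraries, and the orange square of KO replicate 2 lies to the right of the other symbols for most of the abundant PDEs.

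Of the cyclases that calcium and calmodulin stimulate, none passed the adjusted test, and the mean in KO was above that in WT for Adcy1 and below it for Adcy8. Adcy1 (ENSMUSG00000020431, chromosome 11, 7063489 to 7178506, GRCm38), the calmodulin-stimulated cyclase of forebrain neurons, measured 23.5, 18.8 and 19.5 FPKM in the WT libraries against 23.1, 33.1 and 25.5 in KO. KO replicate 2 was highest, and KO replicate 1 fell between the WT values. The log2 difference was 0.38 ± 0.15 (limma adjusted p = 0.297), 0.49 without KO replicate 1 and 0.24 without KO replicate 2. Adcy8 (ENSMUSG00000022376, chromosome 15, 64697084 to 64922296) encodes the other calmodulin-stimulated enzyme. It measured 3.62, 3.43 and 3.49 FPKM in the WT libraries against 2.55, 2.62 and 3.36 in KO. Every KO value lay below every WT value, KO replicate 3 by a small margin, at 485 reads against 503 to 618 reads in WT. The log2 difference was -0.27 ± 0.11 (limma adjusted p = 0.325). Leaving out KO replicate 1 gave -0.21, and leaving out KO replicate 2 gave -0.23. Rescaled to an equal FPKM sum per library, the Adcy8 groups overlapped, but with median-ratio size factors they did not. Adcy3, known from olfactory neurons and from the primary cilia of central neurons, measured 7.07 ± 0.912 FPKM in WT and 7.64 ± 1.18 in KO, within the spread of either group, and its log2 difference of 0.10 was 0.01 without KO replicate 2.

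The calcium-inhibited cyclases gave the family's highest level. Adcy5 (ENSMUSG00000022840, chromosome 16, 35154877 to 35305738), the main cyclase of striatum, measured 108, 82.0 and 111 FPKM in the WT libraries against 112, 158 and 98.3 in KO. The groups overlapped, with KO replicate 3 below 2 WT libraries and KO replicate 2 above all. Its log2 difference of 0.27 ± 0.20 had a 95% interval from -0.20 to 0.74 (limma adjusted p = 0.547) and was 0.07 without KO replicate 2. Adcy6, its close relative, lay between 5.44 and 6.81 FPKM in all libraries, with an interval of -0.28 to 0.21.

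Of the cyclases that G protein beta-gamma subunits stimulate, Adcy2 was the most abundant and kept within a narrow range. It measured 25.2, 25.9 and 27.3 FPKM in the WT libraries against 24.8, 27.2 and 24.9 in KO, and the interval of its log2 difference ran from -0.20 to 0.15. Adcy7 measured 2.28, 2.82 and 3.00 FPKM in the WT libraries against 2.69, 1.20 and 2.22 in KO. KO replicate 2 was low here, at 0.488 times the mean of the other KO libraries, and the log2 difference went from -0.38 to -0.11 without it. Adcy7 is also known from blood and immune cells. The summed level of 8 microglial markers was 266 to 295 FPKM over the WT libraries against 284, 220 and 229 in KO. Their part in the Adcy7 values was not tested. Adcy4 averaged 1.02 FPKM, with KO replicate 3 highest at 1.35 FPKM. Adcy9, a widely expressed cyclase that forskolin stimulates poorly, measured 9.17, 7.77 and 8.21 FPKM in the WT libraries against 9.47, 12.9 and 7.57 in KO. KO replicates 2 and 3 were thus the highest and the lowest of the 6 libraries, and the difference without KO replicate 2 was 0.02.

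Adcy10, the soluble bicarbonate-stimulated cyclase, was near the limit of detection and below the filter of 0.5 FPKM. It had 15, 18 and 12 reads in WT replicates 1 to 3 and 6, 2 and 3 reads in KO replicates 1 to 3. Together these were 45 reads in WT and 11 in KO. Expressed as levels, Adcy10 had 0.0930, 0.115 and 0.0632 FPKM in the WT libraries against 0.0365, 0.0126 and 0.0194 in KO, with no overlap. With no filter, 7.76% of all genes were likewise lower in KO without overlap. For the 2 libraries closest in level, the 95% Poisson interval of WT replicate 3 (0.0326 to 0.110 FPKM) overlapped that of KO replicate 1 (0.0134 to 0.0795 FPKM). This overlap is no test of the groups. In the fit with no filter on low values the log2 difference was -0.17 ± 0.07, with a limma unadjusted p of 0.0444 and an adjusted p of 0.529. In that fit 9.43% of all genes had an unadjusted p under 0.05.

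The calmodulin-dependent PDEs, which degrade both cyclic nucleotides when calcium rises, held the most abundant member. Pde1b (ENSMUSG00000022489, chromosome 15, 103503034 to 103530052) measured 128, 95.8 and 118 FPKM in the WT libraries against 146, 189 and 123 in KO. KO replicate 3 lay between the WT values, so the groups overlapped. The log2 difference was 0.41 ± 0.18 (limma adjusted p = 0.340), 0.43 without KO replicate 1 and 0.24 without KO replicate 2. Pde1a measured 21.5, 20.0 and 18.8 FPKM in the WT libraries against 19.1, 27.7 and 20.8 in KO, and KO replicate 2 alone stood above WT. Its difference of 0.14 turned to -0.01 without that library. Pde1c measured 2.58, 1.82 and 1.82 FPKM in the WT libraries against 1.69, 1.58 and 1.81 in KO. The groups did not overlap, but by 642 reads in KO replicate 3 against 656 in WT replicate 2, and the log2 difference of -0.22 ± 0.14 was -0.08 without WT replicate 1. The Pde1c groups also overlapped after rescaling to an equal FPKM sum, but not with median-ratio size factors.

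Pde10a, the PDE of both cyclic nucleotides that marks medium spiny neurons, had the largest positive difference of the 29 tested members. The gene (ENSMUSG00000023868, chromosome 17, 8525372 to 8986648) measured 48.9, 33.7 and 38.4 FPKM in the WT libraries against 54.9, 91.1 and 45.0 in KO. KO replicate 3 fell below WT replicate 1, and KO replicate 2 was 1.82 times the mean of KO replicates 1 and 3. The log2 difference of 0.60 ± 0.27 did not pass (limma adjusted p = 0.347, 95% interval -0.03 to 1.24). It was 0.68 without KO replicate 1, 0.31 without KO replicate 2 and 0.82 without KO replicate 3. The FPKM of 4 members (Pde10a, Adcy5, Pde7b and Adcy1) was set against that of Pde1b after the values were seen. The ratio of Pde10a to Pde1b was 0.324 to 0.383 in the other 5 libraries and 0.482 in KO replicate 2. The ratio of Adcy5 to Pde1b was 0.848, 0.856 and 0.939 in WT and 0.766, 0.834 and 0.801 in KO. Its groups did not overlap, with KO lower. The ratios of Pde10a, Pde7b (0.0633 to 0.0721) and Adcy1 (0.158 to 0.207) to Pde1b overlapped between the groups. Levels of 22.6% of all tested genes also showed no overlap, and no such share was worked out for ratios. Whether the Adcy5 to Pde1b ratio stands out from other ratios was not tested. Pde11a, the other enzyme of this kind, averaged 0.872 FPKM, lowest in KO replicate 1 at 0.653 FPKM.

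None of the cAMP-specific PDE7 and PDE8 genes passed the adjusted test. Pde7b (ENSMUSG00000019990, chromosome 10, 20398004 to 20725078), a PDE gene known from striatum, measured 8.08, 6.59 and 8.34 FPKM in the WT libraries against 9.57, 13.7 and 8.46 in KO. Its KO values all lay above WT, KO replicate 3 by a narrow margin. The log2 difference was 0.42 ± 0.18 (limma adjusted p = 0.333), and 0.47 and 0.22 without KO replicates 1 and 2. After rescaling to an equal FPKM sum the Pde7b groups overlapped, but with median-ratio size factors they did not. Pde7a overlapped between the groups, with 3.61 ± 0.312 FPKM in WT and 3.22 ± 0.345 in KO. Pde8a (ENSMUSG00000025584, chromosome 7, 81213596 to 81334533) had the smallest p of all members. It measured 8.25, 10.4 and 9.42 FPKM in the WT libraries against 7.01, 6.76 and 7.62 in KO, from 495 to 828 reads per library. All 3 KO libraries lay below all 3 WT libraries, and the mean in KO was 76.3% of that in WT. The log2 difference was -0.36 ± 0.10 (limma adjusted p = 0.220), -0.35 without KO replicate 1 and -0.33 without KO replicate 2. Pde8b measured 16.0, 13.2 and 16.2 FPKM in the WT libraries against 15.7, 21.9 and 15.1 in KO, so that KO replicate 2 alone exceeded WT, and its difference of 0.20 was 0.03 without that library.

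PDE4 enzymes are the cAMP-specific targets of rolipram. Pde4b, the PDE4 gene with the highest level, measured 13.3, 12.1 and 11.3 FPKM in the WT libraries against 12.8, 15.6 and 13.7 in KO (log2 difference 0.19 ± 0.10, limma adjusted p = 0.401, and 0.11 without KO replicate 2). Pde4a lay between 11.2 and 13.4 FPKM in the 6 libraries (95% interval of the log2 difference -0.13 to 0.24), and Pde4d between 2.83 and 3.58 FPKM (-0.27 to 0.23). Pde4c measured 0.446, 0.477 and 0.436 FPKM in the WT libraries against 0.599, 0.692 and 0.545 in KO. These rest on 46 to 53 reads in WT and 54 to 70 in KO, and Pde4c reached the filter of 0.5 FPKM only through its KO values, so its lack of overlap between the groups is no independent result.

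The PDEs that cGMP regulates were listed at low levels. Pde3b, which cGMP inhibits and which insulin activates in fat, measured 1.99, 2.26 and 2.26 FPKM in the WT libraries against 1.70, 1.69 and 1.92 in KO. Its groups did not overlap (log2 difference -0.23 ± 0.11, limma adjusted p = 0.355), and the difference was -0.21 when either KO replicate 1 or KO replicate 2 was left out. Pde3a measured 1.49 ± 0.134 and 1.33 ± 0.150 FPKM. Pde2a, which cGMP stimulates, was listed at 1.21 to 2.04 FPKM, highest in KO replicate 2, from 134 to 227 reads, and its log2 difference of 0.18 was 0.03 without that library. A second gene model on the same strand, Gm45837, covers 99.99% of the Pde2a span and had 3 reads in all 6 libraries together. The sources used here do not say how reads shared by both models were counted, so the level of Pde2a is uncertain. Of the cGMP-specific enzymes, Pde9a measured 8.09, 8.10 and 8.04 FPKM in the WT libraries against 9.19, 7.91 and 9.66 in KO, with KO replicate 2 below WT and the other KO libraries above. Its log2 difference was 0.13, and 0.21 without KO replicate 2. Pde5a, the target of sildenafil, averaged 0.661 FPKM, from 98 to 140 reads per library.

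The photoreceptor enzymes were at the limit of detection. Pde6a had 1 to 5 reads per library, Pde6b 4 to 12, and Pde6c 1 read in each of WT replicate 3 and KO replicate 2 and 0 in the other 4 libraries, where 3 reads would correspond to 0.0537 to 0.0570 FPKM. Pde6d, the chaperone, measured 18.6, 18.4 and 16.9 FPKM in the WT libraries against 18.3, 18.8 and 20.0 in KO, with an interval of the log2 difference from -0.09 to 0.26. Pde12 measured 3.09, 3.04 and 3.03 FPKM in the WT libraries against 2.76, 2.66 and 2.78 in KO. Both groups were tight and did not overlap, and the log2 difference was -0.14 ± 0.08 (limma adjusted p = 0.467). Arf4, at 29.7 FPKM on average, lies on the opposite strand over 51.7% of the Pde12 span. Whether counting used strand is not known, and Arf4 itself measured 28.4 ± 0.906 FPKM in WT and 31.0 ± 0.855 in KO.

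Of the 29 tested members, 8 (27.6%) were highest in KO replicate 2 and lowest in WT replicate 2, namely Pde1b, Adcy5, Pde10a, Adcy1, Pde8b, Pde7b, Adcy3 and Pde2a, as were 9.75% of all tested genes. The reverse order, highest in WT replicate 2 and lowest in KO replicate 2, held for Pde8a and Pde3b (6.90%) and for 5.94% of all tested genes. This description was chosen after the values were seen and was not tested. Summed levels of 12 medium spiny neuron markers were 1164, 870 and 1137 FPKM in the WT libraries against 1482, 1778 and 1238 in KO, lowest in WT replicate 2 and highest in KO replicate 2 as well. No marker was at 0 in all libraries, and 5 of the 12 were higher in every KO than in every WT library, as were 11.8% of all tested genes. For 12 markers of pallial excitatory neurons, those of cortex and basolateral amygdala, the sums were 20.6 to 22.2 FPKM over the WT libraries against 44.5, 145 and 42.6 in KO. Of these 12, 8 were higher without overlap, again beside 11.8% of all tested genes. Sums over 12 oligodendrocyte markers were 1644, 2177 and 1715 FPKM in the WT libraries against 1449, 1012 and 1496 in KO, highest in WT replicate 2 and lowest in KO replicate 2. Of these 12, 9 were lower without overlap, beside 10.8% of all tested genes. What part these cell types had in the values of these cyclases and PDEs was not tested. Without KO replicate 1 the median log2 difference of the 29 members was 0.11, and without KO replicate 2 it was 0.02. Members with an unadjusted p under 0.05 were then Adcy1, Adcy7 and Pde8a without KO replicate 1, against 13.9% of all genes, and Pde8a and Pde9a without KO replicate 2, against 13.3%.

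**Figure D3:**
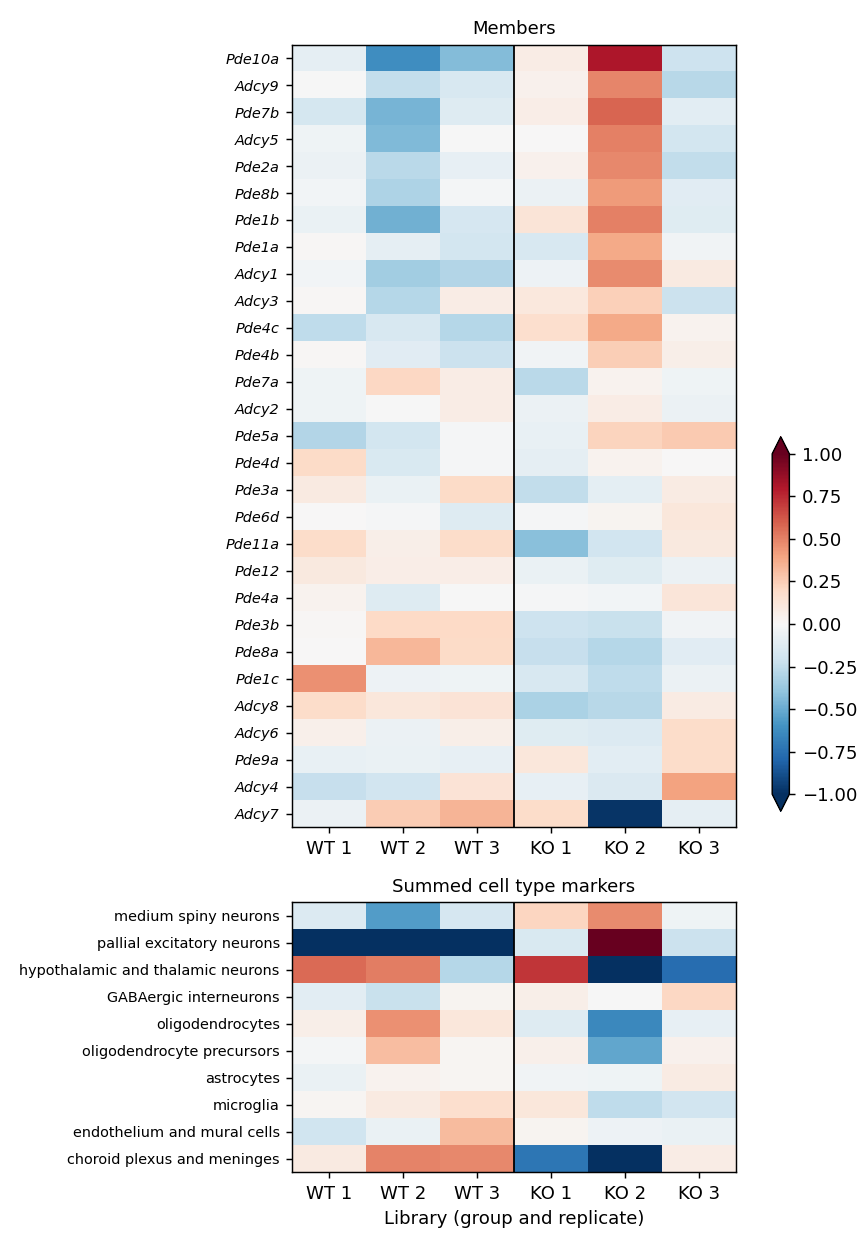
Level of the 29 tested members (top) and of the summed cell type markers (bottom) in each library, as log2 of FPKM over the mean of the 6 libraries, red above and blue below, with colours saturating at 1 and -1. Members are ordered by KO replicate 2 against KO replicates 1 and 3, from Pde10a (1.82 times) at the top to Adcy7 (0.488 times) at the bottom, and the WT replicate 2 column is blue for most of the upper members.

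The rest of the cyclic nucleotide pathway also had 0 genes past the adjusted threshold. Of 74 listed genes in the table, 63 were tested, and 8 had an unadjusted p under 0.05 with a higher level in KO and 1 with a lower level, together 14.3% against 15.2% of all tested genes. For 10 of the 63 (15.9%) the groups did not overlap, against 22.6% of all tested genes. Of these, 8 stood higher in KO (12.7% against 11.8%) and 2 lower (3.17% against 10.8%). The median log2 difference of the 63 was 0.03. Of the 4 genes listed as phosphatase inhibitors under PKA, 3 had an unadjusted p under 0.05 with a higher level in KO, as did 8.36% of all tested genes. The median difference of the 4 was 0.60, the highest of the 9 role groups of the list. The other gene, Arpp21 (0.33, and 0.17 without KO replicate 2), overlapped between the groups. Ppp1r1b, which encodes DARPP-32, measured 275, 214 and 254 FPKM in the WT libraries against 426, 462 and 306 in KO (log2 difference 0.67 ± 0.17, limma adjusted p = 0.210). Ppp1r1a, inhibitor 1 of protein phosphatase 1, measured 39.4, 42.7 and 37.9 FPKM in the WT libraries against 62.0, 77.9 and 52.0 in KO (0.65 ± 0.14, adjusted p = 0.200). Arpp19, a phosphatase inhibitor of the endosulfine family, measured 60.0, 51.7 and 56.2 FPKM in the WT libraries against 79.8, 95.9 and 71.5 in KO. In each of these 3 genes the groups did not overlap, with KO higher, as in 11.8% of all tested genes, and KO replicate 2 was highest. Without KO replicate 2 the differences were 0.55 for Ppp1r1b, 0.50 for Ppp1r1a and 0.43 for Arpp19, and without KO replicate 1 they were 0.61, 0.67 and 0.56.

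Upstream of the cyclases, 4 of 11 G protein genes and their regulators had an unadjusted p under 0.05, all higher in KO, against 8.36% of all tested genes. They were Gnao1 (log2 difference 0.28), Gng7 (0.39), the G protein chaperone Ric8b (0.21) and the striatal regulator Rgs9 (0.45), which with Ppp1r1b is also one of the medium spiny neuron markers. Gng7 and Rgs9 overlapped between the groups. All 4 were highest in KO replicate 2, and without it the differences were 0.20 for Gnao1, 0.29 for Gng7, 0.15 for Ric8b and 0.26 for Rgs9. For 4 of the 11 genes (36.4%) the groups did not overlap, against 22.6% of all tested genes. Gnao1, Ric8b and Gnb1 were the 3 higher in KO and Gnai1 the 1 lower. Gnb1 and Gnai1 were named after their values were seen. The beta subunit Gnb1 had means of 111 FPKM in WT and 127 in KO. Gnai1, an inhibitory alpha subunit, had means of 56.0 FPKM in WT and 51.9 in KO (-0.11, limma adjusted p = 0.474). Gnal, the stimulatory alpha subunit of striatum, measured 83.7, 69.5 and 66.3 FPKM in the WT libraries against 74.8, 110 and 74.9 in KO, overlapping between groups, and its log2 difference of 0.22 was 0.04 without KO replicate 2. Gnas, the ubiquitous stimulatory subunit, measured 14.9 ± 1.20 and 13.0 ± 2.85 FPKM, lowest in KO replicate 2 at 9.86 FPKM (log2 difference -0.21, and -0.03 without that library). Downstream of the cyclases, 0 of 9 PKA subunits and inhibitors and 0 of 9 anchoring proteins had an unadjusted p under 0.05 in limma, against 15.2% of all tested genes. The same held on the cGMP side for 0 of 8 genes of guanylyl cyclases, natriuretic receptors and nitric oxide synthase and 0 of 2 cGMP-dependent kinases. The CREB coactivator Crtc1 measured 15.6 ± 1.47 and 20.1 ± 2.78 FPKM (0.35 ± 0.12, limma adjusted p = 0.257), and 0.25 without KO replicate 2. The 1 lower gene was Hcn3, a cyclic nucleotide-modulated channel, at 7.22, 8.19 and 7.38 FPKM in the WT libraries against 5.85, 5.23 and 6.02 in KO (-0.39 ± 0.09, limma adjusted p = 0.201, and -0.33 without KO replicate 2).

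**Figure D4:**
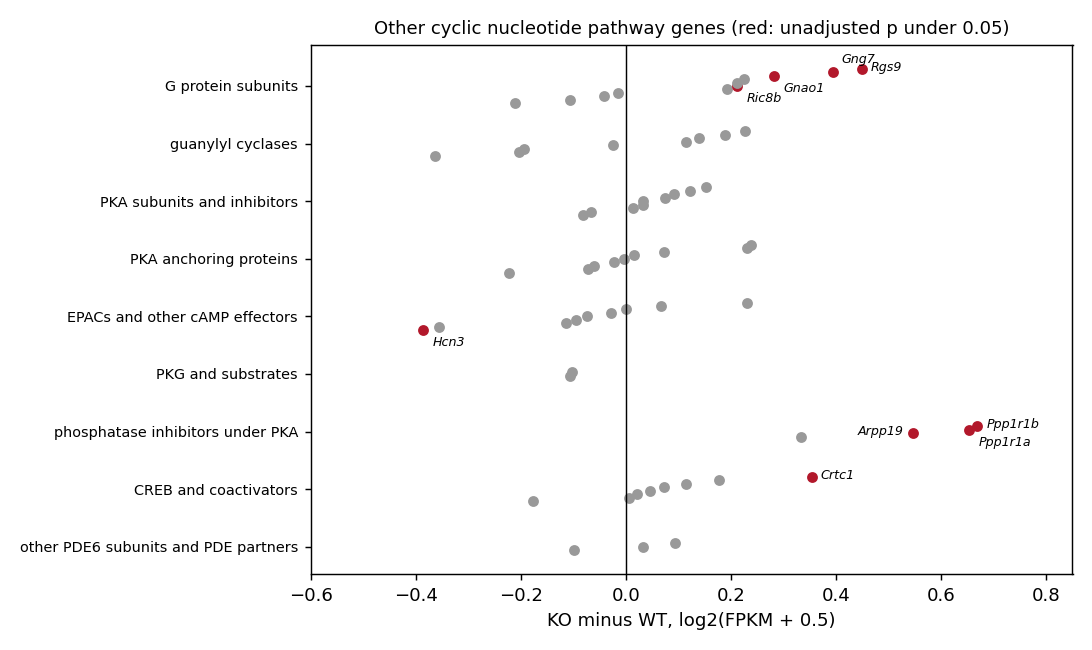
Difference between KO and WT (x axis, the KO level minus the WT level in log2(FPKM + 0.5)) for the 63 tested pathway genes that are not cyclases or PDEs of the rule, by role (y axis), 1 point per gene. The 9 red points have an unadjusted limma p under 0.05, with Hcn3 as the only one to the left of 0 and Ppp1r1b farthest to the right.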

How the data were processed

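RNA sequencing of 6 mouse brain samples was analysed from 1 table of FPKM values that the authors deposited, which gives each gene's symbol, coordinates, biotype and length. Per the submitters' processing notes the build was GRCm38 (mm10). The sources used here do not give the aligner, the counting program, the annotation release or the use of strand. Samples were grouped by their titles, every sample column matched a sample, and 0 columns of sample values stayed unmatched. Multiplying FPKM by gene length gave whole reads within 0.01 for 100% of nonzero values.

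The test was limma-trend with robust moderation (limma 3.58.1, R 4.3.3) on log2(FPKM + 0.5) over all genes averaging 0.5 FPKM or more, KO minus WT, with Benjamini-Hochberg adjustment at 0.05. Errors beside log2 differences are standard errors. Poisson intervals at 95% and the limit of 3 reads cover counting error only. The labels tell the mice apart only by number, so each p-value reflects the spread among these libraries, part of which may be technical.

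The members, the pathway list and the marker lists were chosen with earlier results of these data known. Per-sample values are given for members with an unadjusted p under 0.05, with groups that do not overlap, or among the 4 highest cyclases and 6 highest phosphodiesterases. Values of other members complete their role groups, per sample for Adcy7, Adcy10 and Pde9a, and from the pathway list the 10 smallest p-values, Gnal, Gnas and Ppp1r1b could be named. The settings varied were the pseudocount (0.1 and 1), the filter (none, or 1 FPKM), equal FPKM sums, median-ratio size factors, protein-coding genes only, moderation without trend or robust settings, voom on the recovered reads, a replicate block and leaving out each library.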

Additional observations from a re-analysis of the deposited data

How the results depend on the processing

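The count of cyclases and PDEs past the adjusted threshold was 0, and that of pathway genes 0, under each of the 16 alternatives run. For the 29 tested members, 453 of 461 alternative log2 differences kept their direction and none passed the threshold. Part of the 453 keep it by construction and are no check on direction. The filters, the limit to protein-coding genes, the moderation settings and the replicate block leave a log2 difference unchanged. The other 8 came from leaving out 1 library. Over the libraries left out, the differences ran from -0.068 to 0.0074 for Adcy2 (above 0 without WT replicate 3), -0.00039 to 0.22 for Adcy3 (below 0 without WT replicate 2), -0.013 to 0.18 for Adcy4 (below 0 without KO replicate 3), -0.13 to 0.017 for Adcy6 (0.010 without KO replicate 1, 0.017 without KO replicate 2), -0.012 to 0.25 for Pde1a (below 0 without KO replicate 2) and -0.088 to 0.059 for Pde4d (0.059 without WT replicate 1, 0.013 without KO replicate 1). Members with an unadjusted p under 0.05 numbered 3 (10.3%, against 15.2% of all tested genes). They numbered 6 among protein-coding genes only (20.7% against 16.7%), 5 with moderation without trend or robust settings (17.2% against 14.5%) and 7 with voom on the recovered reads (24.1% against 16.3%). Leaving out single libraries gave 1 to 7. The count was 1 without WT replicate 2 (3.45% against 9.41%) or WT replicate 3 (3.45% against 13.7%), and 7 without KO replicate 3 (24.1% against 13.9%). Members without overlap numbered 7 of 29, Pde4c among them, beside 3653 of 16155 tested genes. After rescaling to an equal FPKM sum they fell to 4, beside 3219 of 16155, and the median log2 difference of all tested genes was -0.04. They were 9 to 16 when single libraries were left out, which makes overlap rarer by construction. The 9 came without WT replicate 2, WT replicate 3 or KO replicate 2, beside 4688, 5869 and 5401 of 16155 genes. The 16 came without KO replicate 3, beside 5288 of 16155. Pathway genes with an unadjusted p under 0.05 numbered 9, and 4 after rescaling to an equal FPKM sum, 6 with the replicate block and 4 to 12 when single libraries were left out (4 without WT replicate 3, 5 without WT replicate 2, 11 without KO replicate 3, 12 without WT replicate 1). The median over the members went from 0.10 to 0.02 without KO replicate 2. The log2 difference of Cntnap4 lay between -1.35 and -0.80 when single libraries were left out. The labels do not say whether replicate numbers pair the samples. Deviations from the group mean, compared across genes, had correlations of -0.09, -0.14 and -0.07 between same-numbered WT and KO libraries. Other WT and KO libraries gave -0.04 to 0.12. Deviations from a group's own mean are tied to each other, so these values cannot exclude a pairing. With the replicate block 1 member had an unadjusted p under 0.05, Pde8a (3.45% against 10.3% of all tested genes). Where a cause is not named, the cause was not tested. Depth limits Adcy10, Pde6a, Pde6b and Pde6c, whose levels rest on at most 18 reads per library.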

Other observations

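PACAP, the peptide encoded by Adcyap1, is named for its activation of adenylyl cyclase. It and its receptor were outside the lists and were looked up after the other values were seen. Adcyap1 measured 3.04, 3.75 and 3.50 FPKM in the WT libraries against 3.13, 1.16 and 4.46 in KO, with KO replicate 2 lowest at 44 reads (log2 difference -0.34 ± 0.37, limma adjusted p = 0.698). Without that library the direction turned, to a log2 difference of 0.11. Its receptor gene Adcyap1r1 measured 39.9 ± 2.67 FPKM in WT and 38.6 ± 4.12 in KO (SD, n = 3), and its log2 difference went from -0.05 to 0.04 without KO replicate 2.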
